A study of Drosophila melanogaster with 312 samples.

Results

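Cytochrome P450 genes are described here in whole adult Drosophila melanogaster that were bred for short or for long night sleep. The genes were taken by symbol: 81 of the 13212 genes in the normalized read counts have a symbol that starts with Cyp and a digit. Among these Cyp1 encodes Cyclophilin 1 and is no P450. Its level (median 21554 in males and 51986 in females) is given once and it was left out of every count that follows. The other 80 are P450 genes, of which Cyp6a15Psi and Cyp9f3Psi are annotated as pseudogenes. The P450 genes of ecdysteroid synthesis that carry names of their own, such as phantom and shade, do not match the symbol rule. They were placed on a comparison list together with neverland and shroud, genes of the same synthesis that are not P450s.

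P450s are haem enzymes that insert an oxygen atom into a substrate, with electrons delivered by a reductase. In insects they make and break the moulting hormone ecdysone and juvenile hormone, they form the cuticular hydrocarbons that waterproof the fly and serve as pheromones, and they oxidise plant toxins, insecticides and odours. By sequence they fall into 4 clans, and the members comprise 39 genes of the CYP3 clan, 29 of the CYP4 clan, 9 of the mitochondrial clan and 3 of the CYP2 clan. In the genome assembly BDGP6.54, 34 members lay on chromosome arm 2R, 14 on the X, 13 on 3R, 12 on 2L and 6 on 3L, and Cyp6a21 was not placed. Many lay side by side: 41 of the 79 placed members stood within 5000 bases of another, in 15 runs, and the longest run held 7 genes at 2R 14871366 to 14889010.

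The study bred 2 short-sleeping populations (S1 and S2), 2 long-sleeping populations (L1 and L2) and 2 control populations (C1 and C2). All 6 descended from the same outbred population, which had been founded by crossing 10 inbred lines, and the controls were bred from randomly chosen parents in the same way, with 25 males and 25 females as parents in every generation. Virgin males and virgin females were frozen in pools of 10 flies after their sleep had been recorded, 2 pools per sex and population at generation 0 and at each of generations 2 to 13. This gave 312 libraries, 52 for each sex and breeding scheme. A population was kept in 1 culture at a time and never mixed with another, so the 2 populations of a scheme are its replicates, while pools and generations of 1 population share their ancestry.

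Sequencing depth was 31539064 to 109389826 counted read pairs per library, with a median of 41317004. Levels are normalized read counts, the raw count divided by the size factor of the library (0.74 to 2.47). Markers of reproductive tissue separated the sexes, except that 4 libraries stood apart in their ovary or testis markers. The second pool of L1 males at generation 8 had a summed level of 238377 over 18 of 18 ovary and eggshell markers, against a male median of 18937, and 22001 over the 13 testis markers measured, against a male median of 130218. Of the 18, 16 were lower in males, while orb and grk were slightly higher (log2 0.19 and 0.05). With male medians of 16812 and 1189, orb and grk held most of the ovary sum of a typical male library. The second pool of S2 males at generation 0 (ovary sum 114252) and the first pool of S2 males at generation 2 (40676) were next among males, and the first pool of C2 females at generation 2 had a testis sum of 3966, against a female median of 180. In the accessory gland markers the first pool of L2 females at generation 5 had the highest female sum. It had 1712, against a female median of 26.9 and a second highest of 301, and it was kept when the 4 were left out. Results of members that rest on the 4 libraries are given with and without them. Sex differences of comparison genes are given with all libraries only.

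P450 genes took a median 2.77% of all counts in males (range 1.17 to 4.7%) and 0.639% in females (0.316 to 1.1%). A single gene dominated. Cyp4g1, the oenocyte enzyme that catalyses the last step of cuticular hydrocarbon synthesis, held a median 68.2% of the P450 counts in males and 52.6% in females. Per kilobase of exon its median level was 348793 in males and 59827 in females. Next came Cyp6g1, known for insecticide resistance, with a level per kilobase of 71124 in males and 18173 in females. In males these were followed by Cyp6d5 (12949 per kilobase), and in females by Cyp6a19 (11665 per kilobase), a gene that was almost silent in males. The median normalized count exceeded 1000 in 46 members in males and in 18 in females. Across the libraries of a sex the coefficient of variation had a median of 27.8% over the members in males and 33.8% in females.

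Males and females differed in all members under the deposited scaling. In an additive model of sex, population and generation, all 80 members passed the threshold (Benjamini-Hochberg adjusted p below 0.001, edgeR), against 98.3% of the 13915 genes tested, so passing the test sets no member apart from other genes. By direction, 74 members were higher in males and 6 were lower. Among all genes, 61.4% were called higher in males and 36.9% lower. The median difference, male minus female, was 2.02 on the log2 scale for the members and 1.27 for all genes tested. Scaling by TMM moved both, to 1.61 for the members and 0.86 for all genes, reversed the direction of Cyp4ae1 and left Cyp4ae1 and Cyp4d1 short of the threshold. TMM also moved the share of called genes that were higher in males to 58.2%, against 62.5% with the deposited size factors. In whole flies fewer cells of a type and less RNA per cell cannot be told apart.

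In males 9 members were at least 8-fold higher, a size reached by 26.1% of all genes. Of these, 6 had a female median at or under the study's cutoff for low expression in females and are called male-limited here: Cyp4d21, Cyp312a1, Cyp28c1, Cyp310a1, Cyp28d2 and the pseudogene Cyp6a15Psi. Cyp4d21, also known as sex-specific enzyme 1, which acts in male courtship, ranged from 647 through a median of 2327 to 5760 in the 156 male libraries. In the 156 female libraries it ranged from 0 through 11.3 to 71.6, so the sexes did not overlap. The difference was 7.57 ± 0.0763 (SE) on the log2 scale, 190-fold, with an adjusted p of 2.01e-228. A gene entered this test where it exceeded the cutoff of either sex. Cyp4d21, Cyp28c1, Cyp310a1, Cyp28d2 and Cyp6a15Psi did so in males only. For these genes the filter and the label draw on the same levels, and the p-value adds no separate support.

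Cyp312a1 reached a lowest, median and highest level of 1853, 9694 and 32517 in males and 35.1, 73.0 and 310 in females, a 137-fold difference (log2 7.10 ± 0.0633, adjusted p = 1.22e-243). Among the male-limited genes it had the highest level in males, and its female libraries never approached the male ones. Cyp28c1 (52.2-fold), Cyp310a1 (41.1-fold) and Cyp28d2 (16.3-fold) had male medians of 641, 770 and 609 and female medians of 12.0, 18.2 and 36.0. Cyp6a15Psi was lower in both sexes, with medians of 179 in males and 19.0 in females (8.87-fold). Cyp313a1 (20.2-fold), Cyp6a8 (10.7-fold) and Cyp309a2 (8.96-fold) were male-biased but measurable in females, with male medians of 9103, 5279 and 1849 and female medians of 422, 432 and 203. The lowest male value of each of these 9 genes came from the second L1 pool at generation 8.

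Cyp6a19 was the only member at least 8-fold lower in males, a size reached by 4.14% of all genes. Its lowest, median and highest levels were 9.39, 49.8 and 13417 in males, against 10668, 22316 and 31634 in females. The 3 highest male values, 13417, 5248 and 5126, were those of the 3 male libraries with high ovary marker sums, and the next highest was 564. Without the 4 libraries the male range was 9.39 to 564 in 153 libraries and the sexes no longer overlapped. The difference was -7.91 ± 0.196 on the log2 scale (241-fold) with all libraries and -8.55 ± 0.0763 (375-fold) without the 4. Its male median lay just above the study's cutoff for low expression in males. By the definition used for the male-limited genes it was therefore not female-limited. That outcome depends on the cutoffs, because the study's cutoff is lower in males than in females. The male median of Cyp6a19, 49.8, was below the female median of Cyp312a1, 73, which was called male-limited.

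The other 5 members that were lower in males differed much less. Cyp6v1 had a median of 1144 in males and 6798 in females (log2 -2.51), Cyp6a22 had 951 and 3561 (-1.84), and Cyp6u1 had 984 and 2759 (-1.48). Cyp18a1 (-0.34) and Cyp6t1 (-0.27) differed least. Male and female libraries did not overlap at all in 8 members, against 27% of all genes. Without the 4 libraries they did not overlap in 33 members, against 56.2% of all genes. The plot of male against female medians shows the members by clan.

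**Figure D1:**
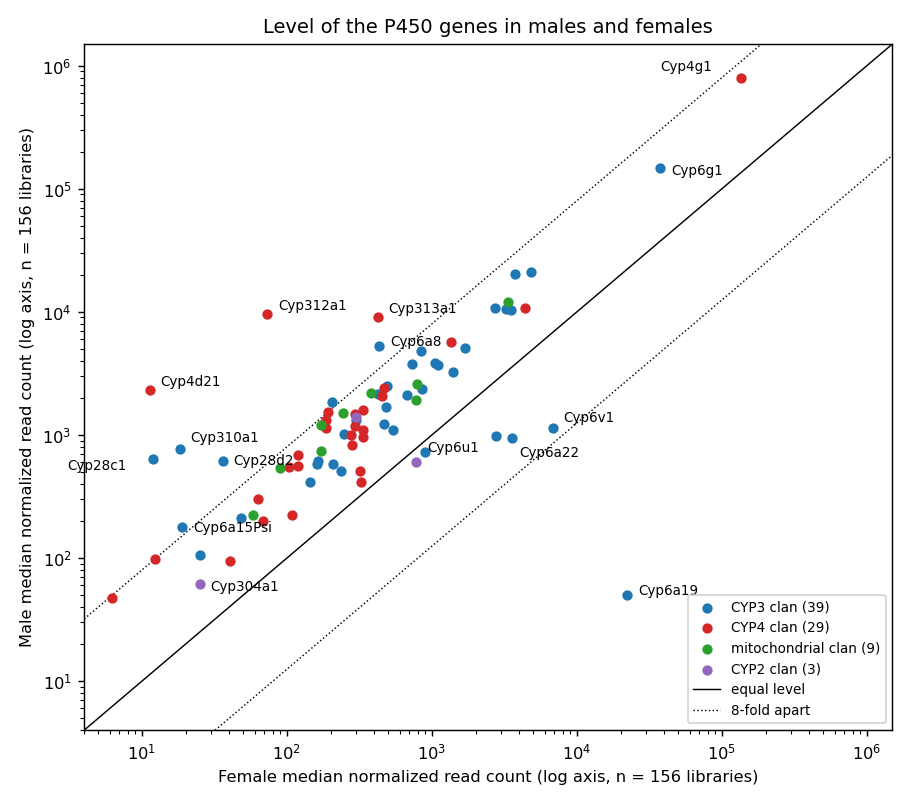
Median normalized read count of each of the 80 P450 genes in males (vertical, log axis) against females (horizontal, log axis), coloured by clan; the solid line marks equal levels and the dotted lines an 8-fold difference. Most members lie above the line, Cyp4d21 and Cyp312a1 far above it, and Cyp6a19 alone lies far below it.

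Members with roles in hormone metabolism were of modest level. Cyp18a1, which inactivates ecdysteroids by hydroxylation, had a lowest, median and highest level of 300, 599 and 1037 in males and 230, 771 and 1433 in females. It was one of the few members that were lower in males, by 0.34 ± 0.0397 on the log2 scale (adjusted p = 3.19e-16). Cyp6g2, expressed in the juvenile hormone gland, had 718, 2165 and 4116 in males and 155, 428 and 918 in females, and was 4.97-fold higher in males (log2 2.31). It overlaps Cyp6g1 by 94 bases on the opposite strand, and reads from the overlap could belong to either. Cyp6t3, which takes part in ecdysteroid synthesis, had medians of 616 in males and 163 in females (3.61-fold, log2 1.85).

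Members of the hydrocarbon and barrier group were all higher in males. Cyp4g1 ranged from 230724 through 794899 to 1699388 in males and from 40381 through 136346 to 354853 in females, 5.91-fold (log2 2.56 ± 0.0431, adjusted p = 1.71e-166). The ranges overlapped at the low end of the males. The second L1 pool at generation 8 had 346295, which was not the lowest male value. Cyp4g1 was not among the 33 members whose sexes did not overlap without the 4 libraries that stood apart. Cyp4g15, a close relative of Cyp4g1 that is expressed in the nervous system, had medians of 1186 in males and 294 in females (4.01-fold). Cyp301a1, a mitochondrial-clan enzyme needed to form the adult cuticle, had medians of 224 in males and 58.1 in females (3.71-fold). Cyp303a1, which was on the same list, was not analysed here.

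None of these 6 members passed the threshold between short and long populations at generations 10 to 13 in either sex. In males the short minus long differences of the 6 lay between -0.23 and 0.12 on the log2 scale. The smallest adjusted p among them was that of Cyp4g1 in females, where the short libraries had a median of 140723, the long libraries 94606 and the controls 124671 (log2 0.48 ± 0.167, adjusted p = 0.0258). In males Cyp4g1 had a late median of 806780 in short, 829890 in long and 1015302 in control libraries (log2 -0.03 ± 0.061). Cyp6g2 alone passed the test of slopes over generations described further on, in females, with slopes relative to the controls of 0.025 in S1, -0.064 in S2, 0.050 in L1 and -0.054 in L2. The 2 populations of a scheme thus had opposite signs.

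**Figure D2:**
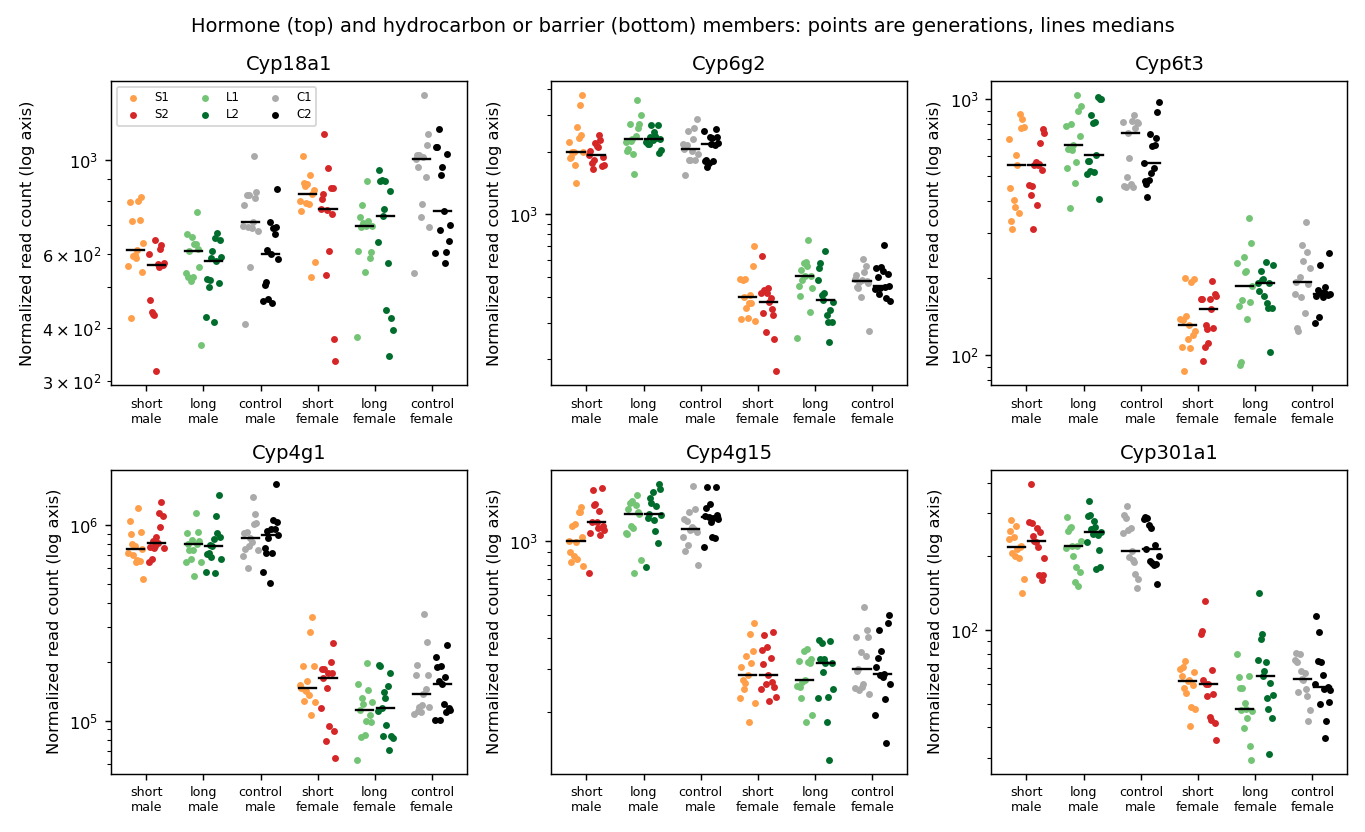
Normalized read count (log axis) of 3 hormone members (top row) and 3 hydrocarbon or barrier members (bottom row) by breeding scheme and sex; each point is the mean of 2 pools in 1 population at 1 generation, coloured by population, and each line is the median of a population. Cyp18a1 is similar in the sexes, the other 5 are higher in males, and the schemes overlap in each.

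Genes of the same pathways that are not members were read beside them. Their p-values, and those of the electron donors and regulators below, treat pools and generations of a population as independent. No fit with populations as replicates is given for these genes. Of the 8 listed ecdysteroid synthesis genes 6 were tested and 5 were lower in males, among them spook (spo, log2 -5.29), shroud (sro, -3.02) and phantom (phm, -2.55). Only shade (shd), which converts ecdysone to its active form in peripheral tissue, was higher (2.09). Between schemes at generations 10 to 13, neverland (nvd), which acts at the start of ecdysone synthesis, was higher in short females (log2 1.49 ± 0.161, adjusted p = 1e-09), and in short males it had -0.32 ± 0.115 (adjusted p = 0.0299). The summed ovary and eggshell markers of late females had medians of 233136 in short, 200998 in long and 221781 in control libraries, 0 of the 18 markers passed the threshold there (2 at an unadjusted p under 0.05), and their part in the neverland difference was not tested. Among the 7 hydrocarbon synthesis genes only the desaturase Desat1 passed, and it was higher in the short populations in both sexes (0.43 ± 0.082 in males and 0.36 ± 0.0701 in females). The female-type enzymes Fad2 (-7.70) and eloF (-5.50), which make the long dienes of female cuticle, were lower in males. The sex differences in this paragraph were fitted with all libraries, those that stood apart included. Male medians and highest levels were 17.8 and 8481 for Fad2 and 32.5 and 897 for eloF.

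Among the electron donors, the mitochondrial ferredoxin Fdx1 was higher in short males (0.41 ± 0.0519, adjusted p = 2.27e-08), while the P450 reductase Cpr (-0.01), Cyt-b5 (0.02) and the ferredoxin reductase dare (0.15) did not pass the threshold in males. All 6 juvenile hormone genes were higher in males than in females, by 0.72 to 3.35 on the log2 scale. Only the epoxide hydrolase Jheh2 differed between schemes at generations 10 to 13, in females (-0.24 ± 0.0376). Among 5 regulators of detoxification and hormone response, only the juvenile hormone receptor Met differed, and by little (-0.22 ± 0.0479 in females).

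Selection was followed by comparing the short with the long populations at generations 10 to 13, where each scheme had 16 libraries per sex. In males 25 of 80 members passed the threshold, 15 of them higher in short populations and 10 lower, against 12.5% of all 13849 genes tested (6.04% higher and 6.48% lower). In females 18 of the 71 members that passed the expression filter did, 12 higher and 6 lower, against 9.09% of 10076 genes (3.2% higher and 5.9% lower). The median difference over the members tested was -0.04 in males and 0.08 in females on the log2 scale, beside 0.00 and -0.04 over all genes. Both sexes shared 15 members that passed, each in the same direction, which is 60% of the male and 83.3% of the female list. The matching share over all genes was not computed, and both sexes came from the same 6 populations, so this overlap sets no member apart. Whether the sexes differed in these late contrasts was not tested. The model treats pools and generations of a population as independent. With the 6 populations as replicates (limma), 0 members passed in either sex, and an unadjusted p under 0.05 was found for 17 of 80 members in males and 14 of 71 in females. The share of all genes at that unadjusted level is not given here, so these counts show no excess among the members. When L2 was left out, 12 members passed in females. Among reproductive markers in late males, 1 of 18 ovary and eggshell markers and 1 of 13 testis markers passed, both higher in short populations, and 2 of 13 accessory gland markers passed, both lower. For the accessory gland list the summed level had medians of 70616 in short, 92431 in long and 79906 in control libraries. The part of these tissues in the member differences was not tested.

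Population means were compared as well. Both short means lay on the same side of both long means in 27 of 80 members in males (33.8%), close to the 30.6% of all genes, and in 25 of 71 in females (35.2%), beside 32.2% of all genes. Means in the order short, control, long or the reverse, with all 6 populations separated, were found for Cyp9b2, Cyp49a1 and Cyp6d4 in males, 3.75% of members beside 3.77% of all genes. In females they were found for Cyp6a17, Cyp6a23 and Cyp9f3Psi, 4.23% beside 2.08%.

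**Figure D3:**
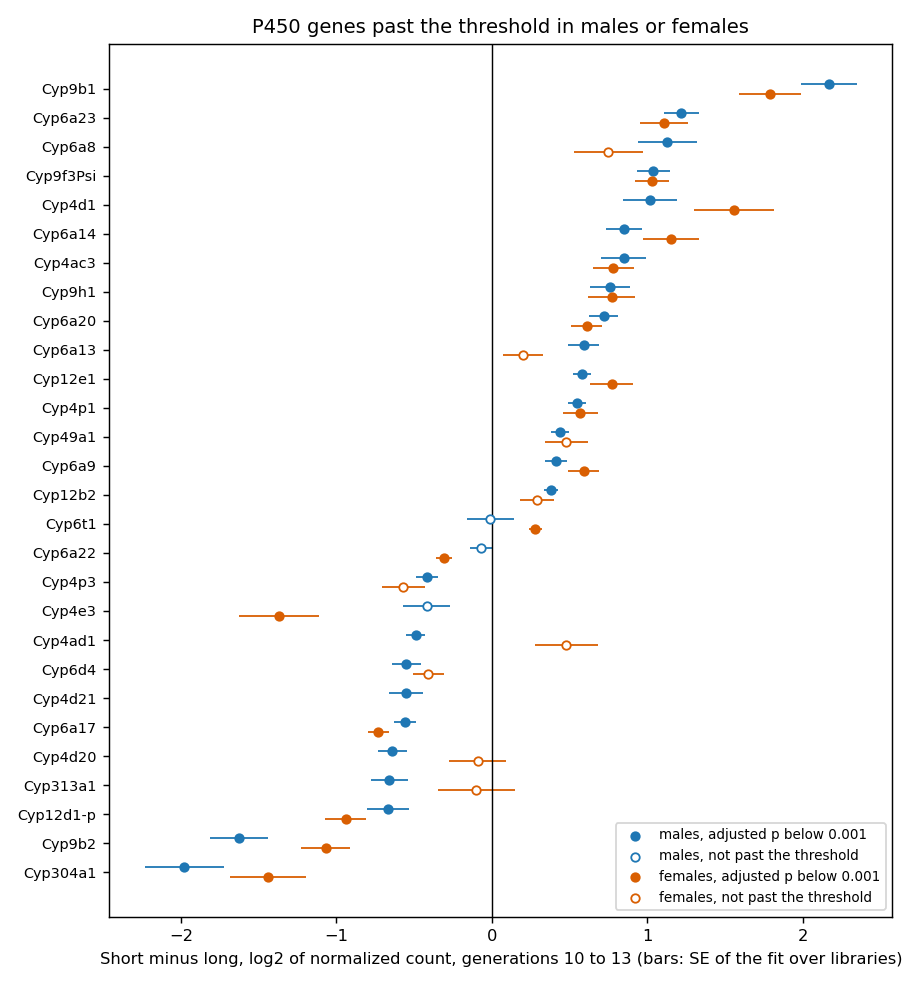
Short minus long difference on the log2 scale at generations 10 to 13 (horizontal) for the 28 members that passed the threshold in males or in females; points are fitted differences, bars their SE over libraries, and filled points have an adjusted p below 0.001. The members run from Cyp9b1, 2.17 higher in short males, to Cyp304a1, at -1.98, and the 15 called in both sexes share their direction.

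The neighbours Cyp9b1 and Cyp9b2 had late short minus long differences of opposite sign. They lie head to tail on 2R, 468 bases apart (7127838 to 7132139, minus strand). Cyp9b1 had a lowest, median and highest level of 608, 2021 and 5629 in short males, 256, 468 and 653 in long males and 252, 326 and 491 in control males. The short libraries thus overlapped the long ones only at their lower end, and the medians of both short populations (2510 in S1 and 1537 in S2) lay above every long and control library. Cyp9b1 was higher in short males by 2.17 ± 0.179 (4.5-fold, adjusted p = 3.73e-13). In females the levels were 150, 465 and 1891 in short, 69.2, 157 and 252 in long and 88.7, 128 and 320 in control libraries (log2 1.79 ± 0.198, adjusted p = 1.66e-09).

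At generation 0 the mean of 2 pools of Cyp9b1 in males was 641 in S1, 336 in S2, 531 in L1, 340 in L2, 783 in C1 and 538 in C2, so the populations differed by 2.33-fold before selection and by 8.43-fold at generations 10 to 13. The late means were 2671 ± 1352 in S1, 1520 ± 802 in S2, 368 ± 95.5 in L1, 547 ± 79.0 in L2, 317 ± 42.3 in C1 and 383 ± 84.0 in C2 (SD over 8 libraries). Relative to generation 0, both short populations and L2 had higher late means, and both control populations and L1 had lower ones.

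For Cyp9b2 the short minus long difference had the reverse sign. In males the lowest, median and highest levels were 2440, 7951 and 12325 in short, 12556, 25084 and 41727 in long and 6203, 12239 and 25718 in control libraries. The late short and long male libraries of Cyp9b2 did not overlap, and the controls lay between and overlapped both. The short minus long contrast of Cyp9b2 in males was -1.63 ± 0.187 (adjusted p = 2.85e-09). In females the levels were 788, 1961 and 3776 in short, 1786, 4063 and 6748 in long and 2071, 4389 and 5989 in control libraries (log2 -1.07 ± 0.157, adjusted p = 1.02e-06). There the long libraries were close to the controls.

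The populations differed in Cyp9b2 from the start. At generation 0 the male libraries of the populations numbered 1 had 4625 to 8358 and those of the populations numbered 2 had 6969 to 23112. In long males the generation 0 means were 5352 in L1 and 10041 in L2, and the late means were 21897 ± 7484 and 28659 ± 9153. In short males the late means, 7100 ± 3189 in S1 and 9350 ± 2627 in S2, were near the generation 0 means of 5797 and 10938.

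**Figure D4:**
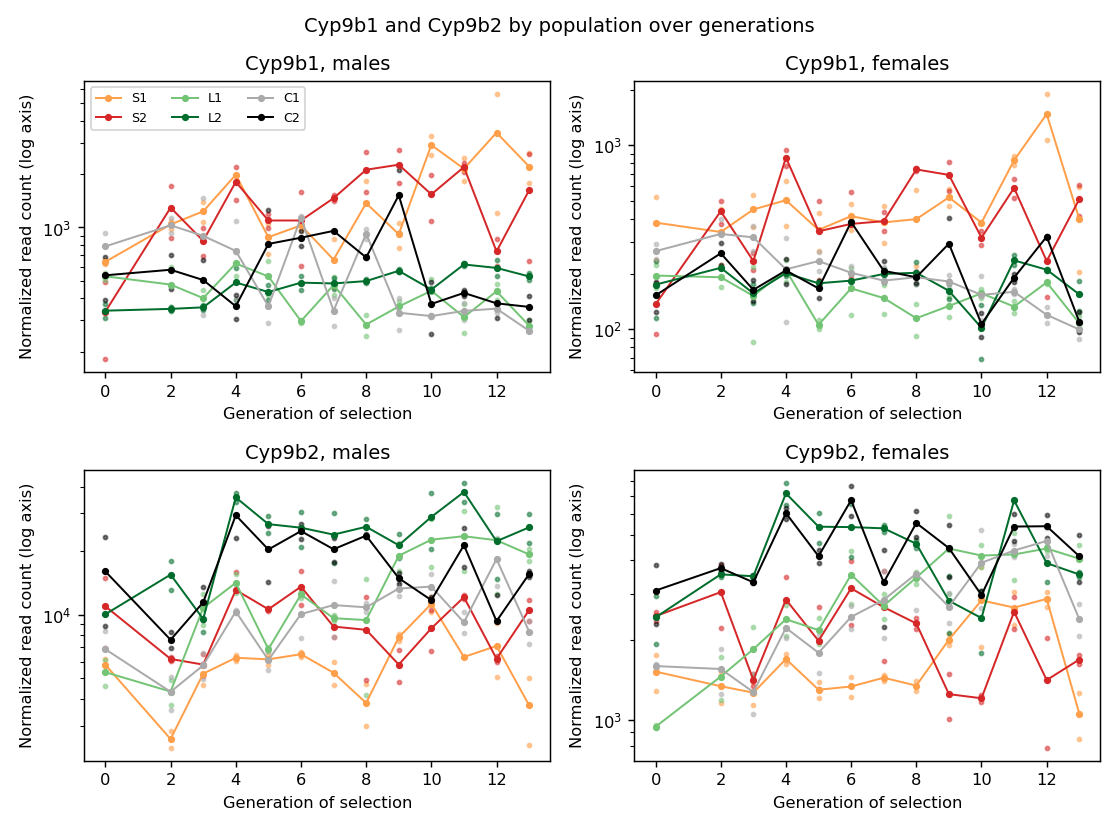
Normalized read count (log axis) of Cyp9b1 and Cyp9b2 over generations 0 and 2 to 13 in males and females, by population; lines join the mean of 2 pools and small dots are pools. Late Cyp9b1 is highest in S1 and S2 in males and late Cyp9b2 is highest in L1 and L2 in males.

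The longest run of neighbours, 7 genes of the Cyp6a subfamily on 2R, held members that differed in sex and in scheme. In the order along the chromosome they are Cyp6a22, Cyp6a17, Cyp6a23, Cyp6a19, Cyp6a9, Cyp6a20 and Cyp6a8. The difference between sexes ran from -7.91 (Cyp6a19) to 3.43 (Cyp6a8) within these genes. In late males 5 of the 7 passed the threshold, 4 higher in short populations, and in late females 5 passed, 3 higher. Cyp6a9 and Cyp6a19 overlap by 397 bases on opposite strands, and the strand setting used in counting is not stated, so reads from the overlap could belong to either.

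Cyp6a23 had late levels of 1284, 4995 and 12067 in short males, 979, 2263 and 3172 in long males and 2277, 3081 and 5216 in control males (lowest, median, highest). The short difference was carried more by S2 (median 8093) than by S1 (3713), whose libraries overlapped those of both controls, and without S2 the male contrast was 0.66 and still passed. The contrast was 1.22 ± 0.112 in males (adjusted p = 8.86e-12) and 1.11 ± 0.154 in females (adjusted p = 2.96e-07). In females the medians were 1173 in short, 579 in long and 1002 in control libraries, with the long libraries lowest.

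Cyp6a17, known for setting temperature preference in flies, ran the other way. Its late levels were 2198, 2618 and 3592 in short, 3417, 4106 and 5313 in long and 2199, 2750 and 3732 in control males. The medians of short and control males were close and that of long males was higher, with a contrast of -0.56 ± 0.0686 (adjusted p = 1.06e-08). In females it was -0.73 ± 0.0703 (adjusted p = 4.35e-11). Cyp6a20, linked to male aggression, was higher in short populations, by 0.72 ± 0.0942 in males and 0.61 ± 0.0976 in females. Its medians of 4850 in short and 4511 in control males were close and the long median was 3151. The female contrast of Cyp6a20 did not pass without S2 or without L2.

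In 2 members of the run single populations stood out. Cyp6a9 was higher in short populations by 0.41 ± 0.0706 in males and 0.59 ± 0.0976 in females, but its late medians in males were 2832 in S1, 2891 in S2, 1244 in L1, 3901 in L2, 1415 in C1 and 2156 in C2. The long populations lay at opposite ends, and without L1 the contrast turned to -0.41 in males and -0.16 in females. Cyp6a8, an enzyme induced by phenobarbital and caffeine, was higher in short than in long males (1.13 ± 0.188), although its control median of 8262 exceeded the short median of 7655. Without S2 the male contrast of Cyp6a8 was 0.82 and without L1 0.85, and neither passed. In females it had 0.75 ± 0.223 (adjusted p = 0.00947).

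Cyp12e1, Cyp4p1, Cyp9f3Psi and Cyp6a14 also passed between schemes in both sexes. Cyp12e1, of the mitochondrial clan, had late medians of 735 in short, 486 in long and 675 in control males (0.58 ± 0.0589) and of 150, 94.0 and 165 in females (0.77 ± 0.139). Cyp4p1 had 7422 in short, 4556 in long and 6479 in control males (0.55 ± 0.0569) and 1571, 1107 and 1524 in females (0.57 ± 0.111). In both genes the short populations were near the controls. Without L1 the contrast of Cyp12e1 in males was 0.33 and still passed. Without L2 the contrast of Cyp4p1 in males was 0.20 and no longer passed. The pseudogene Cyp9f3Psi had 601 in short, 310 in long and 358 in control males (1.04 ± 0.109) and 249, 109 and 194 in females (1.03 ± 0.112). Cyp6a14 had 631, 325 and 368 in males (0.85 ± 0.114) and 180, 58.3 and 118 in females (1.15 ± 0.18). When L1 was left out the male contrast of Cyp9f3Psi was 0.45, and without L2 the female contrast of Cyp6a14 was 0.42, and neither passed. Further members called in both sexes included Cyp4d1 (1.02 ± 0.173 in males and 1.56 ± 0.258 in females), Cyp4ac3 (0.85 ± 0.145 and 0.78 ± 0.132) and Cyp9h1 (0.76 ± 0.127 and 0.77 ± 0.152), all higher in short populations.

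Other members passed in 1 sex. Cyp12b2 was higher in short males (0.38 ± 0.0459) and Cyp6t1 in short females (0.28 ± 0.0441). Neither passed without S2, where they had 0.21 and 0.09, and Cyp6t1 did not pass without L1 (0.11). Of the male-limited genes only Cyp4d21 passed, lower in short males (log2 -0.55 ± 0.109, adjusted p = 0.000109). Its late male medians were 1698 in S1, 1706 in S2, 3154 in L1, 1880 in L2, 2435 in C1 and 2055 in C2, so L1 was high and L2 lay closer to the short populations. Of the 10 members with detoxification roles 3 passed in males (Cyp6a8, Cyp6a9 and Cyp12d1-p) and 2 in females (Cyp6a9 and Cyp12d1-p). The abundant Cyp6g1 did not pass, with -0.20 ± 0.113 in males and -0.22 ± 0.135 in females, nor did Cyp6d5 (-0.21 and -0.23), Cyp6w1 (0.03 and -0.07), Cyp28d1 (-0.19 and -0.08), Cyp12a4 (-0.11 and 0.02) or Cyp6a2 (-0.33 and -0.56).

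In 2 members late levels were very low in some populations. Cyp12d1-d and Cyp12d1-p are near-identical copies on 2R, 1773 bases apart, known for induction by caffeine and phenobarbital, and because only uniquely mapped reads were counted the split between the copies is uncertain. At generations 10 to 13, Cyp12d1-d had at most 3 reads in 8 of 8 male libraries of L2 (0 reads in 5 of them), in 6 of 8 of S2 and in 4 of 8 of C1. It had more than 3 reads in all 8 of S1, with a lowest, median and highest raw count of 224, 593 and 2094. In L1 and C2, 1 male library each was at 0 reads. Females gave the same picture, with 8 of 8 libraries of L2, 5 of 8 of S2, 4 of 8 of C1 and 1 of 8 of C2 at 3 reads or fewer, and none of S1 or L1.

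In generations 0 to 9 these populations were measurable in most libraries. The raw count of Cyp12d1-d in males had a median of 154 in L2, 329 in S2 and 1094 in C1, and 3 of 18 libraries of L2 and 3 of 18 of S2 had 3 reads or fewer. At generation 0 the male levels were 1116 to 2054 in the populations numbered 1 and 43.3 to 700 in those numbered 2, so the levels of the bottles already differed at the start. In each scheme the late libraries at 3 reads or fewer were more numerous in 1 of the 2 populations, S2, L2 and C1. The fitted contrast, 3.06 ± 1.02 in males (adjusted p = 0.0193), rested on L2 and turned to -2.15 without that population, and with counts of 0 its size depends on the fit.

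Cyp12d1-p did not follow its copy. Its late male medians were 824 in S1, 969 in S2, 1211 in L1, 1778 in L2, 1608 in C1 and 1183 in C2, and it was lower in short populations, with -0.67 ± 0.134 in males (adjusted p = 0.000124) and -0.94 ± 0.131 in females (adjusted p = 2.79e-07). Without L2 the male contrast was -0.37 and did not pass. Among the populations L2, where Cyp12d1-d was lowest, had the highest late median of Cyp12d1-p in males.

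Cyp304a1, of the CYP2 clan, was low in a single short population. Its late male medians were 156 in S1, 7.80 in S2, 168 in L1, 128 in L2, 61.3 in C1 and 39.0 in C2. S2 alone had libraries with 3 reads or fewer, 2 of 8 in males and 2 of 8 in females. In generations 0 to 9 the median raw count was already lowest in S2. It was 16 in S2 males, beside 49 to 76 in the other populations, and 14 in S2 females, beside 20 to 33. The contrast of -1.98 ± 0.254 in males (adjusted p = 3.29e-08) and -1.44 ± 0.244 in females therefore joins a short population at the level of the long ones with a short population far below them.

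**Figure D5:**
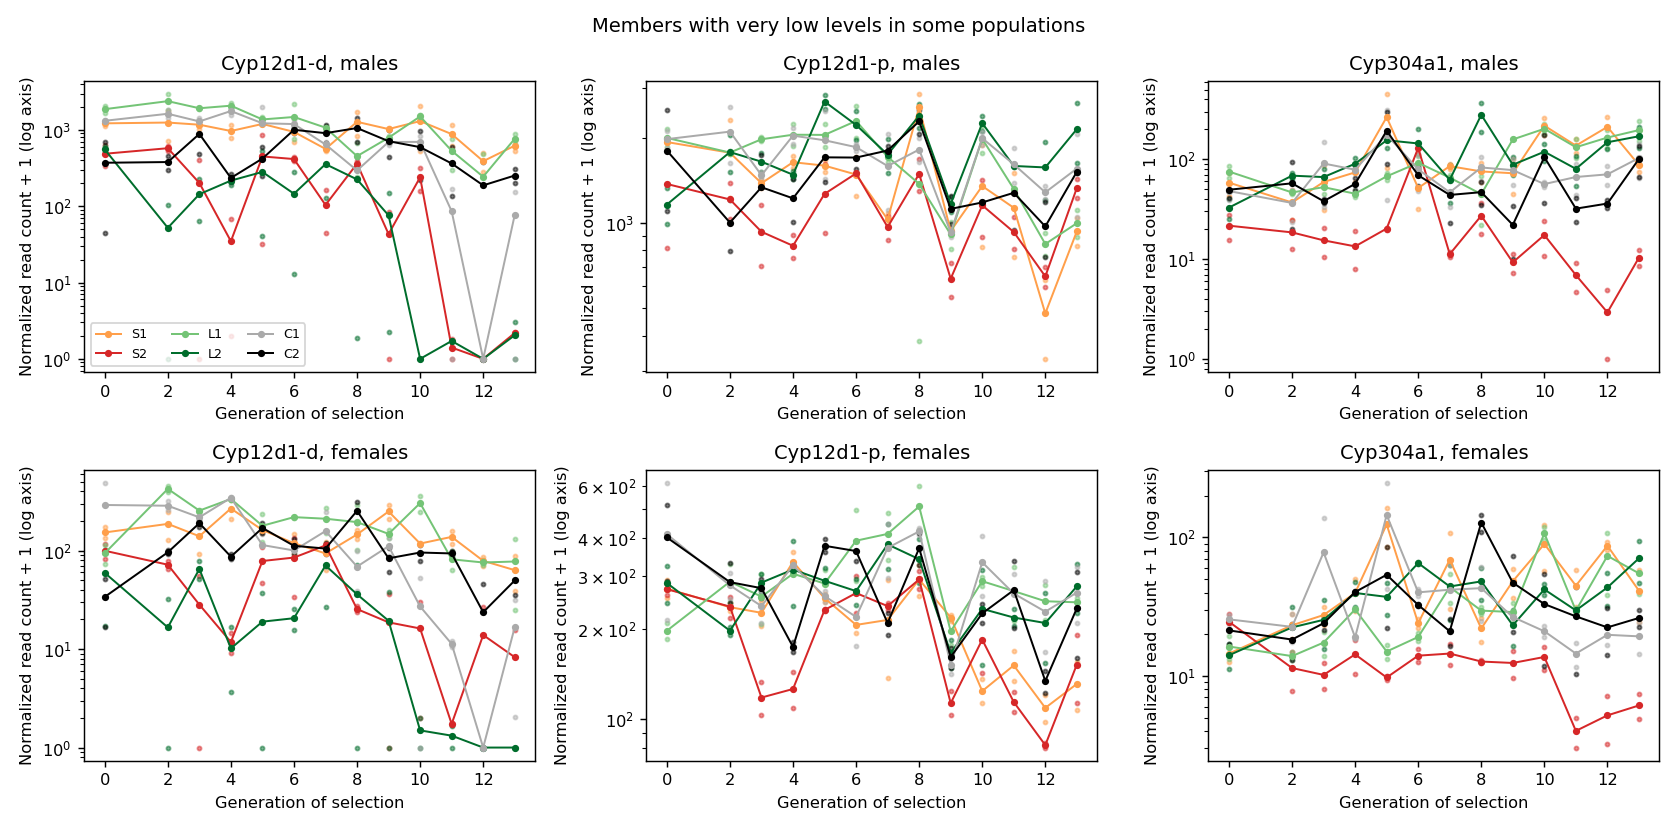
Normalized read count plus 1 (log axis) of Cyp12d1-d, Cyp12d1-p and Cyp304a1 over generations 0 and 2 to 13 in males (top row) and females (bottom row), by population; lines join the mean of 2 pools and small dots are pools. Cyp12d1-d drops to the floor in L2, S2 and part of C1 at late generations while Cyp12d1-p does not, and late Cyp304a1 is lowest in S2.

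The course over all generations was tested by adding to a slope shared by all populations a slope of its own for each selected population, with the 4 added slopes tested together. In males 9 of 80 members passed, against 5.89% of all genes, and 16 of 71 in females, against 9.92%. In both sexes 5 passed: Cyp4ae1, Cyp4p1, Cyp6a16, Cyp6a9 and Cyp9f3Psi (55.6% of the male and 31.2% of the female list). For this overlap too the share over all genes was not computed. A pass says that the 4 slopes were not all 0 and gives no direction common to a scheme. When the replicate number entered the model as a block with its own slope, 4 members passed in males and 6 in females, of which 4 and 5 were among those called without it. The short and long slopes are both relative to the same controls and are given side by side. With populations as replicates (limma), 0 members passed in either sex, and an unadjusted p under 0.05 was found for 8 male and 3 female members, again without the share over all genes. Leaving out the second pool of L1 males at generation 8 gave 14 members that passed in males, and with L1, L2 or S1 left out 8 or 9 passed in females.

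In males the smallest adjusted p was that of Cyp6a9 (2.83e-10), an enzyme of the detoxification group. Its added slopes, in log2 units per generation, were 0.079 ± 0.0172 in S1, 0.053 ± 0.0172 in S2, -0.063 ± 0.0169 in L1 and 0.071 ± 0.0173 in L2, so 3 were positive and that of L1 was negative. Cyp312a1, one of the male-limited genes, had 0.091 in S1, -0.016 in S2, 0.099 in L1 and -0.019 in L2 (adjusted p = 2.1e-07). Its mean in S1 males was 9115 at generation 0 and 20146 ± 7294 at generations 10 to 13, and in L1 males 7985 and 18234 ± 6946. In the other populations the late means were 8626 ± 1454 in S2, 9608 ± 1187 in L2, 11020 ± 3398 in C1 and 10085 ± 1189 in C2, near their generation 0 means of 8163, 11387, 9581 and 10174.

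In females the smallest adjusted p was that of Cyp6a16 (4.46e-08), with added slopes of 0.153 ± 0.0305 in S1, -0.078 ± 0.0317 in S2, 0.103 ± 0.0314 in L1 and -0.028 ± 0.0313 in L2. Cyp4d1 had 0.152 in S1, -0.047 in S2, 0.056 in L1 and -0.176 in L2 (adjusted p = 1.26e-06). The values of Cyp9c1 in the same order were 0.080, -0.035, 0.078 and 0.006, those of Cyp311a1 0.073, -0.080, 0.065 and -0.029, those of Cyp6a13 0.078, -0.024, 0.072 and -0.006, and those of Cyp4ae1 0.076, -0.027, 0.057 and -0.034. In each of these 6 genes the added slopes of S1 and S2, which were bred for the same trait, differed in sign. The slope of L1 was positive like that of S1 in each. That of L2 was negative like that of S2 in all but Cyp9c1.

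Cyp9b1 in males had added slopes of 0.220 ± 0.0401 in S1, 0.178 ± 0.0438 in S2, 0.032 ± 0.0412 in L1 and 0.147 ± 0.0417 in L2 (adjusted p = 7.74e-06), with both short slopes above both long ones. Cyp9b2 in females had -0.011, -0.133, 0.083 and -0.070 (adjusted p = 1.44e-05), and Cyp4p1 in females 0.012, -0.043, -0.024 and -0.114 (adjusted p = 1.48e-06). The slopes of Cyp9b1 did not pass without S1 or without C1, those of Cyp9b2 without S2 or without L1, and those of Cyp4p1 without L2.

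The mean short minus the mean long slope, which uses no control, passed the threshold for 3 of 80 members in males, against 1.86% of all genes (1.08% higher and 0.78% lower in short populations), and for 1 of 71 in females, against 0.992% (0.377% higher and 0.615% lower). In males these were Cyp12e1 (0.053 ± 0.0113 per generation, adjusted p = 0.000368), Cyp9f3Psi (0.095 ± 0.0209, adjusted p = 0.000723) and Cyp4p1 (0.053 ± 0.0118, adjusted p = 0.000911), all 3 higher in short populations. In females it was Cyp9f3Psi (0.077 ± 0.0162, adjusted p = 0.000646). These 4 calls lay close to the threshold. With the deposited size factors an unadjusted p under 0.05 was found for 18 members in males and 17 in females. With TMM scaling 0 members passed the threshold in either sex. Without the second pool of S2 males at generation 0, 0 passed in males (16 at an unadjusted p under 0.05), 1 passed without the first pool of S2 males at generation 2, and 5 passed without the second pool of L1 males at generation 8. Without the 4 libraries that stood apart, 1 of the 3 members named for males was still called. With S2 left out altogether 0 passed in males. In females the call of Cyp9f3Psi was lost when S1, L1, L2, C1 or C2 was left out and held only without S2.

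The sexes differed in this slope difference for 1 member, Cyp6a19, lower in males, against 0.446% of all genes (0.151% higher and 0.295% lower in males). Male minus female was -0.46 ± 0.0932 per generation (adjusted p = 0.00038), and without the 4 libraries that stood apart it was -0.04 ± 0.0432 (adjusted p = 1). The male slopes of Cyp6a19 (adjusted p = 1.02e-05) likewise had an adjusted p of 0.717 without them. In the same model of male slopes 12 of the 18 ovary and eggshell markers passed the threshold.

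Levels also differed between generations on average over the populations. The model gave all populations the same generation terms, so a pass does not show that they changed alike. With generation as a factor of 13 levels, 65 of 80 members passed in males, against 86.3% of all genes, and 53 of 71 in females, against 92.5%, shares below those of all genes. Generations were sampled at different times, and what else changed with them cannot be told apart from generation. The ratio of the highest to the lowest generation mean in males was 7.66 for Cyp12d1-d, with 1046 ± 902 at generation 2 and 137 ± 208 at generation 12 (SD, 12 libraries each). In females the same gene had 179 ± 149 at generation 2 and 31.4 ± 36.2 at generation 12, a ratio of 5.72. These means of Cyp12d1-d join unlike populations. At generations 10 to 13 its median raw count in males was 593 in S1, 1 in S2, 709 in L1, 0 in L2, 63 in C1 and 268 in C2.

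Cyp6a19 had the largest ratio in males, 34.2, with generation means of 517, 485 and 1161 at generations 0, 2 and 8, the generations of the 3 male libraries that stood apart, and 33.9 to 116 at the others. In females it held between 16316 ± 3090 at generation 9 and 26182 ± 2476 at generation 5, a ratio of 1.6. Cyp9b2 in males had its lowest mean, 6747 ± 4526, at generation 2 and its highest, 18347 ± 11843, at generation 11 (ratio 2.72). Cyp6a23 in males had 6520 ± 3538 at generation 4 and 2333 ± 1013 at generation 12 (2.79). Cyp4d1 had a ratio of 2.49 in both sexes, with peaks at generation 8, and Cyp9f3Psi in males one of 2.43.

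In females Cyp309a1 had 380 ± 159 at generation 3 and 1124 ± 585 at generation 12 (ratio 2.96), Cyp313a1 had 751 ± 320 at generation 3 and 293 ± 167 at generation 10 (2.56), and Cyp28d1, linked to nicotine metabolism, had 2678 ± 839 at generation 3 and 6371 ± 3410 at generation 8 (2.38). Cyp6a8 in females had a ratio of 2.48 but did not pass (adjusted p = 0.0281). Cyp4g1 was highest at generation 11 in both sexes, with 1218703 ± 289452 in males and 227354 ± 81277 in females, and lowest at generation 0 in males (640721 ± 93688) and at generation 13 in females (104111 ± 33547).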

How the data were processed

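RNA was sequenced from pools of 10 whole flies as polyA-selected, stranded paired-end libraries. The authors used CASAVA 1.8.2, mapped reads with STAR to FlyBase release r6.07 and counted uniquely mapped reads per gene with HTSeq, and they deposited the raw counts (17478 genes) and normalized counts (13212 genes), which are the raw counts divided by DESeq size factors and serve here as a signal. The strand setting of the counting is not given in the sources used here. The 4266 genes outside the normalized table held 1.05% of all counts. For 35 libraries the pool number of the title differed from that of another label; the title was used, and pool numbers enter only the alternatives that leave out a pool number.

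Raw counts were tested with edgeR 4.0.16 (quasi-likelihood F-test, R 4.3.3), with the authors' size factors as offsets, over genes whose raw count divided by its size factor exceeded 48.6 in males or 102 in females, the cutoffs of the study, in at least 1 library. P-values were adjusted over all genes tested by the Benjamini-Hochberg method and called under 0.001. Counts at an unadjusted p under 0.05 are given for members or markers alone, without the share over all genes. All 80 members passed the filter in males and 71 in females. The model of sex had 6 populations and 13 generations as factors. The late comparison contrasted the mean of the short with the mean of the long populations at generations 10 to 13, with controls in the fit. Slopes over generations had an intercept per population and an added slope for each selected population. Log2 fold changes are fitted, with SE. P-values measure the spread between pools and generations of 2 populations per scheme; an alternative with limma 3.58.1 used the populations as replicates.

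Named genes were the members of the function lists, members at least 8-fold different between sexes (up to 10 in each direction), up to 8 members per other test by adjusted p, and, among members with a mean over 100, the 6 with the largest range of generation means. The members, lists and markers were chosen with earlier results of these data known. Coordinates, names and lengths are from the annotation of BDGP6.54. Alternatives were TMM scaling, DESeq2 1.42.0, no filter, and leaving out populations, pools, generation 0 or single libraries. Males and females of a population and generation share parents, and their deviations correlated in 78 of 78 pairs over 0.1 (lowest 0.14, median 0.36). A block for this pairing changed no member's call.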

Additional observations from a re-analysis of the deposited data

Results flagged for a closer look

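The short minus long slope of Cyp6a19 differed between males and females by -0.46 log2 units per generation (edgeR, adjusted p = 0.00038), and by -0.04 (adjusted p = 1) without the 4 libraries that stood apart in their reproductive markers.

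Among 8 libraries of a population at generations 10 to 13, Cyp9b1 in S1 males had a highest value of 5629 with the next at 3269, and Cyp9f3Psi in C1 females had a highest value of 263 with the next at 194. In each the gap from the highest library to the next, divided by the range of the 8, exceeded Dixon's critical value at the 95% level. These are 2 of 96 groups examined, and by the construction of that level chance marks about 1 group in 20.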

How the results depend on the processing

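All 80 sex differences were called with each population or pool number left out, without the 4 libraries that stood apart, with DESeq2 and without the filter, and 78 with TMM and with populations as replicates. Counts of members called at generations 10 to 13 stayed within 1.5 times the counts reported (25 in males, 18 in females) with TMM, DESeq2 and no filter. With populations as replicates the counts were 0 for the slopes of males and of females, for the short minus long slope (6 at an unadjusted p under 0.05 in each sex), for the late contrast in both sexes and for the sex difference of slopes (1 at an unadjusted p under 0.05). Slopes in males gave 14 calls without the second pool of L1 males at generation 8. The short minus long slope in males gave 5 calls with DESeq2, 5 without that L1 pool, 1 without the first pool of S2 males at generation 2, 0 without the second pool of S2 males at generation 0, 0 without generation 0 (15 at an unadjusted p under 0.05) and 0 with TMM. In females it gave 0 with TMM and 2 without generation 0. The sex difference of slopes gave 0 calls without the 4 libraries that stood apart and 0 without generation 0 (7 at an unadjusted p under 0.05 in each).

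When a population or a pool number was left out in turn, the counts ranged from 0 to 9 for slopes in males, 0 to 22 for slopes in females, 0 to 3 and 0 to 4 for the short minus long slope in males and females, 6 to 28 and 2 to 21 for the late contrast, 24 to 70 and 14 to 53 for the generation course, and 0 to 1 for the sex difference of slopes. The lowest counts of slopes, late contrast and course came from leaving out 1 pool number, where fewer samples remained.

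Late log2 differences that changed sign when a population or a pool number was left out ranged in males from -0.30 to 0.25 for Cyp4g1, -0.40 to 0.47 for Cyp6w1, -0.32 to 0.10 for Cyp12a4, -0.45 to 0.13 for Cyp6g2, -0.50 to 0.10 for Cyp6g1, -0.75 to 0.11 for Cyp6a2, -0.41 to 1.23 for Cyp6a9, -0.43 to 0.01 for Cyp6d5, -0.60 to 0.24 for Cyp28d1 and -2.15 to 8.35 for Cyp12d1-d. In females they ranged from -0.09 to 0.38 for Cyp18a1, -0.13 to 0.16 for Cyp12a4, -0.58 to 0.23 for Cyp6g2, -0.61 to 0.18 for Cyp6g1, -0.35 to 0.21 for Cyp6w1, -0.38 to 0.22 for Cyp28d1, -0.16 to 1.35 for Cyp6a9 and -1.99 to 6.64 for Cyp12d1-d. Of the values of single members under alternatives, 1282 kept their call and direction, 202 lost the call, 10 gained it and 34 changed sign.

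The labels do not say that populations of different schemes with the same replicate number shared a culture or a date. The difference between the replicate populations of a scheme, taken in the order of their numbers, was therefore correlated over genes between schemes. In males this correlation was 0.30 for short with long, 0.49 for short with control and 0.46 for long with control. In females it was 0.05, 0.42 and 0.43 in the same order. These values do not measure how alike the levels of same-numbered populations were. With the replicate number as a block the slopes gave 4 calls in males and 6 in females, the late contrast 23 and 15, the short minus long slope 4 and 1, the course 67 and 55 and the sex difference 1.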
